A study of Homo sapiens with 9 samples.

Results

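A set of 7 genes was taken from the transcriptome of MDA-MB-231 cells, namely AKAP12, EPS8L2, RUNX2, AFAP1L1, NOTCH3, KCNK1 and PLCXD1. They were chosen by gene name from 27615 genes listed in any library, because rimonabant had changed their measured levels at least 2-fold against vehicle while TXX-1-10 had changed them less than that in the same direction. All 7 were listed in at least 8 of the 9 libraries and entered the fit of 9369 genes. RNA was sequenced from MDA-MB-231 cells, an established human triple-negative breast cancer line, treated with DMSO as the vehicle, with rimonabant, or with TXX-1-10, and 3 libraries were made per treatment. Rimonabant is a blocker of CB1, a cannabinoid receptor, from which TXX-1-10 was derived. Neither the dose nor the time of exposure of the sequenced cells is given in the sources used here, nothing states that the 3 libraries of a treatment came from separate cultures, and p-values therefore measure the spread between these libraries, which may be technical.

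The 7 genes act at the cell cortex, the cell membrane and in transcription. AKAP12 encodes gravin, a scaffold that holds protein kinase A and protein kinase C near the plasma membrane. EPS8L2 belongs to the EPS8 adaptors that link growth factor receptors to Rac and actin, and AFAP1L1 is an actin filament-associated protein related to the Src partner AFAP1. NOTCH3 is a receptor that, once cut by ADAM proteases and gamma-secretase, releases a fragment acting with the DNA-binding protein RBPJ. RUNX2 is a runt-domain transcription factor required for bone formation that binds DNA with its partner CBFB and is also studied in breast cancer spread to bone. KCNK1 encodes TWIK-1, a potassium leak channel, and PLCXD1 encodes a protein with the catalytic X domain of phosphatidylinositol-specific phospholipase C.

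Library totals were 17078370 to 19277808 reads. Each deposited list runs broadly from high to low counts and ends partway through a line, and the list of rimonabant replicate 1 is the shortest with 4237 genes, so a gene missing from it need not be at 0. Of the 7 genes, AKAP12 and EPS8L2 are listed in that library. Vehicle cells had VIM at 274 to 284 FPKM, MSN at 239 to 243, KRT18 at 72.4 to 76.9, CD44 at 39.3 to 40.1, and ESR1, PGR and CDH1 at 0.0342 FPKM or lower in the vehicle library that lists them. SPARC, which was taken as a marker of the line, was at 0.558 FPKM or lower in 6 libraries, and EPCAM, which was taken as low, was at 4.82 to 5.37 FPKM in 2 vehicle libraries. GATA3 and ERBB3, also taken as low, were at 1.24 to 1.45 and 0.450 to 0.732 FPKM in the 2 vehicle libraries that list each. KRT5 and KRT14, taken as low too, were listed in no library. Markers of immune, endothelial and fibroblast cells did not exceed 0.798 FPKM, the highest value of COL1A1.

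The genes lie on 6 chromosomes (GENCODE release 29 on GRCh38), as no pair other than AKAP12 and RUNX2, both on chromosome 6, shares one. AKAP12 spans chr6:151239999-151358557 on the plus strand and RUNX2 spans chr6:45328157-45664349 on the plus strand. EPS8L2 is at chr11:694438-727727 (plus), AFAP1L1 at chr5:149271871-149341802 (plus), KCNK1 at chr1:233614004-233672512 (plus) and NOTCH3 at chr19:15159038-15200981 (minus). PLCXD1, at chrX:276322-303356 (plus), is in the first pseudoautosomal region, which the X and Y chromosomes share. The merged exons of the 7 genes measured 3627 to 9394 bases, and 5 of the 7 were longer than the median fitted gene of 5407 bases.

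The stretch before the start of 4 of the 7 genes is shown as an example. The genes were chosen on their levels, and PLCXD1 was higher with both compounds while AKAP12, RUNX2 and NOTCH3 were lower. The sequences are those of RefSeq on GRCh38.p14, cut where a GENCODE exon begins, and capitals mark a GC box (GGGCGG), a RUNX motif (TGTGGT) or an AP-1 motif (TGANTCA) on either strand. They cover chr6:151239717-151239966 (plus) for AKAP12, chr6:45328080-45328156 (plus) for the distal start of RUNX2, chr19:15200996-15201245 (minus) for NOTCH3 and chrX:276106-276321 (plus) for PLCXD1.
AKAP12: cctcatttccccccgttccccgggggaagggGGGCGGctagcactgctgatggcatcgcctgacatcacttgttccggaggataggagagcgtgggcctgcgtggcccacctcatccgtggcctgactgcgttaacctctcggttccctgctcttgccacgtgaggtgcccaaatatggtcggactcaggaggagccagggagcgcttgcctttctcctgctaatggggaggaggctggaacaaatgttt
RUNX2: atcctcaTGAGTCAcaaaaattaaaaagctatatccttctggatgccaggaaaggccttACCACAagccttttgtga
NOTCH3: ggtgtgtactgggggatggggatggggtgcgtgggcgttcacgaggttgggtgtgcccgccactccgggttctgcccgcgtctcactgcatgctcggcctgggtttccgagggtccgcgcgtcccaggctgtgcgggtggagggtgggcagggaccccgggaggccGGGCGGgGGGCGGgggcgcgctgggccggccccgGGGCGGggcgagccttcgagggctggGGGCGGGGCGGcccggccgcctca
PLCXD1: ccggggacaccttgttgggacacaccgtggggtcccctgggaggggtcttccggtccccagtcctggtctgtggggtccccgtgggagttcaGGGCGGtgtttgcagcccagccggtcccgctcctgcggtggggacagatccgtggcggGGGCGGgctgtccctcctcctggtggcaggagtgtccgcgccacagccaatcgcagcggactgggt
Over the 250 bases before each of the 11 RefSeq starts of the 7 genes, a GC box was present in 8 windows (72.7%), against 42.6% of all 34788 promoters. Every gene had at least 1 such window, but AKAP12 has 3 windows and the share of all promoters is per window. G and C made up 61.2% to 81.2% of these 8 windows, against a median of 58.0% over all promoters. Unlike the sequences shown, the counted windows were not cut where a GENCODE exon begins. When cut there, the windows of KCNK1 and RUNX2 held no GC box. Neighbouring GC boxes can overlap, as at the end of the NOTCH3 window. The RUNX motif was found in 1 window, the distal start of RUNX2, against 10.97% of all promoters, and the AP-1 motif in the same window, against 6.59%. The TEAD motif GGAATG was in 3 windows (11.9% of all promoters), the TATA box TATAAA in 1 (10.8%) and the RBPJ motif TGGGAA in none (20.8%). These matches are descriptions of letters and not binding sites.

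Compared with vehicle, levels of AKAP12, EPS8L2, RUNX2, AFAP1L1 and NOTCH3 were lower and levels of KCNK1 and PLCXD1 were higher in rimonabant-treated cells. With TXX-1-10 each of the 7 genes differed from vehicle in the same direction, by less than 2-fold. For these 7 genes the selection therefore rests on the size of the TXX-1-10 change at a threshold and not on the absence of a change. Since these values chose the genes, they are given below as a description, without a test. In bulk RNA, fewer cells of a kind and less RNA per cell cannot be told apart.

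AKAP12 was the most abundant of the 7 genes, at 78.3, 77.3 and 76.7 FPKM in the vehicle libraries. It was at 25.4, 33.7 and 30.8 FPKM in rimonabant replicates 1 to 3 and at 42.2, 42.7 and 35.6 FPKM with TXX-1-10. No library of one treatment overlapped another treatment, although TXX-1-10 replicate 3 came within 1.87 FPKM of rimonabant replicate 2. In the fit without rimonabant replicate 1, the log2 fold change was -1.26 (SE 0.081) with rimonabant and -0.95 (SE 0.07) with TXX-1-10, that is 41.7% and 51.9% of the vehicle level. With the 9 libraries that list it, the rimonabant value was -1.37.

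EPS8L2 was at 26.0, 27.4 and 28.0 FPKM in vehicle, at 11.7, 12.5 and 13.1 FPKM with rimonabant and at 17.6, 17.7 and 16.3 FPKM with TXX-1-10. The 3 treatments formed separate groups of libraries with rimonabant lowest. The log2 fold change was -1.08 (SE 0.063) with rimonabant and -0.66 (SE 0.054) with TXX-1-10, and the 2 compounds differed by 0.43 (SE 0.062). EPS8L2 shares 121 exon bases with the opposite-strand gene DEAF1, whose log2 fold changes were 0.10 and 0.26. Whether strand was used in counting is not given in the sources used here, so a few reads of this gene are uncertain.

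AFAP1L1, the second actin-associated gene, was at 7.11, 6.49 and 6.27 FPKM in vehicle, at 3.16 and 2.80 FPKM in rimonabant replicates 2 and 3, and at 4.34, 3.43 and 3.42 FPKM with TXX-1-10. The compounds did not overlap, with 0.254 FPKM between their nearest libraries. Its log2 fold change was -1.15 (SE 0.12) with rimonabant and -0.83 (SE 0.1) with TXX-1-10.

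RUNX2 was at 4.82, 5.27 and 5.12 FPKM in vehicle, at 2.43 and 2.57 FPKM with rimonabant, and at 3.08, 2.89 and 2.39 FPKM with TXX-1-10. The lowest TXX-1-10 library was below both rimonabant libraries, so the ranges of the compounds overlapped. The log2 fold change was -1.02 (SE 0.1) and -0.86 (SE 0.089), and the difference between the compounds was 0.16 (SE 0.1), with 0.08 without TXX-1-10 replicate 1 and 0.26 without TXX-1-10 replicate 3. Of the 7 genes, RUNX2 had the rimonabant value nearest to the threshold, and it was -0.98 without rimonabant replicate 2 and -0.99 without vehicle replicate 2.

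NOTCH3 was low in these cells, at 1.64, 1.66 and 1.98 FPKM in vehicle. It was at 0.753 and 0.764 FPKM with rimonabant, from 133 counts in each library, and at 1.34, 1.19 and 0.949 FPKM with TXX-1-10. The 3 treatments did not overlap. The log2 fold change was -1.21 (SE 0.15) with rimonabant and -0.60 (SE 0.12) with TXX-1-10. The compounds differed by 0.61 (SE 0.15), and by 0.29 with limma on log2(FPKM + 1), where the rimonabant value was -0.65 and the TXX-1-10 value -0.36.

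KCNK1 was at 3.47, 3.44 and 3.67 FPKM in vehicle, at 6.39 and 8.23 FPKM with rimonabant, and at 6.49, 6.94 and 6.77 FPKM with TXX-1-10. All 3 TXX-1-10 libraries lay between the 2 rimonabant libraries. The log2 fold change was 1.05 (SE 0.11) with rimonabant and 0.93 (SE 0.1) with TXX-1-10, but 0.86 with rimonabant once rimonabant replicate 3 was left out, which also turned the TXX-1-10 minus rimonabant difference from -0.12 to 0.08. The libraries did not separate the compounds for KCNK1.

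PLCXD1 was the least abundant gene in vehicle, at 1.48, 1.39 and 1.71 FPKM. It reached 3.54 and 3.21 FPKM with rimonabant and 2.18, 2.18 and 2.51 FPKM with TXX-1-10. The 3 treatments did not overlap, and rimonabant was the highest. The log2 fold change was 1.14 (SE 0.11) with rimonabant and 0.58 (SE 0.11) with TXX-1-10, and the compounds differed by -0.56 (SE 0.11).

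**Figure D1:**
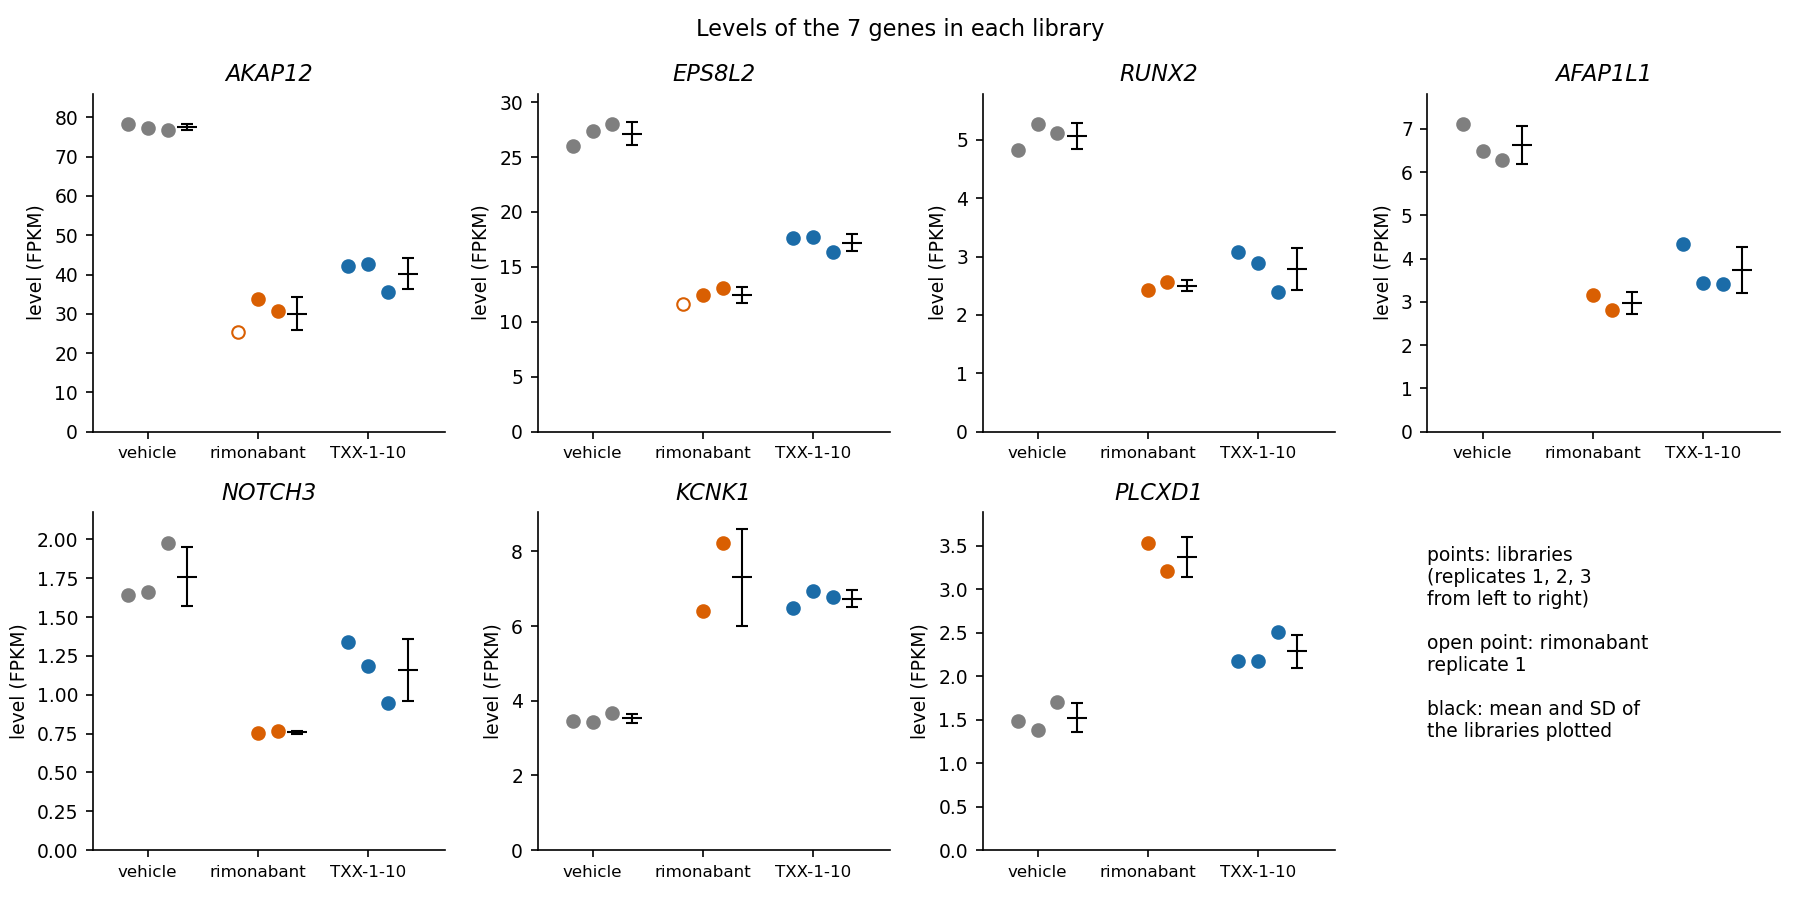
Level of each gene in FPKM in every library that lists it, by treatment, with the mean and SD of the plotted libraries in black; each vertical axis starts at 0. The vehicle libraries stand apart from both compounds in all 7 panels, and the TXX-1-10 libraries overlap the rimonabant libraries for RUNX2 and KCNK1.

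**Figure D2:**
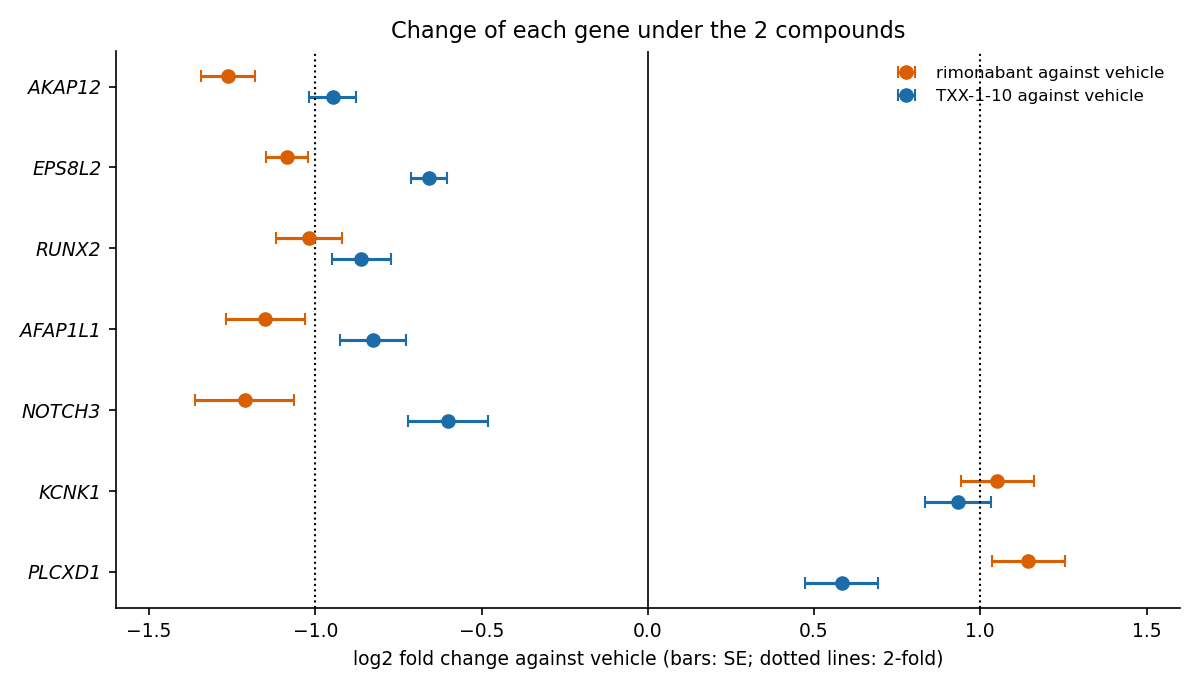
Log2 fold change against vehicle of the 7 genes with rimonabant and with TXX-1-10 in the 8-library fit, with bars of 1 SE and dotted lines at a 2-fold change. Rimonabant values lie past the dotted lines, from -1.26 for AKAP12 to 1.14 for PLCXD1, and TXX-1-10 values lie inside them, because the genes were selected so.

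Across the 7 genes, no vehicle library overlapped a library of either compound, and 5 of 7 showed no overlap between the compounds. Such separation was common, since over all 9369 genes it was found for 65.4% between rimonabant and vehicle, 76.4% between TXX-1-10 and vehicle and 66.9% between the compounds. Calls were rarer, and 1.49% of the 9369 genes were called changed by rimonabant, 0.758% lower and 0.736% higher, where a call needs a 2-fold change and an adjusted p under 0.05 in edgeR's quasi-likelihood test. With TXX-1-10, 12.7% were called against vehicle and 6.41% against rimonabant. As the genes were selected on these contrasts, nothing is read from their own counts.

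Treatment also changed the order of the levels per length. In vehicle the order was AKAP12, EPS8L2, AFAP1L1, RUNX2, KCNK1, NOTCH3 and PLCXD1, and the ranges of the last pair overlapped. With rimonabant KCNK1 and PLCXD1 came next after EPS8L2, above AFAP1L1 at 2.98 FPKM and RUNX2 at 2.50 FPKM. With TXX-1-10 KCNK1 also followed EPS8L2, while PLCXD1 at 2.29 FPKM stayed below AFAP1L1, and its range overlapped that of RUNX2. NOTCH3 was the lowest gene with both compounds.

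TXX-1-10 replicate 3 gave the lowest TXX-1-10 value for 5 of the 7 genes, those that were lower with both compounds. In this library, longer genes lay lower relative to the mean of the treatment (Spearman rho -0.628 of deviation with length, over genes that are not independent), against 0.47 and 0.564 in TXX-1-10 replicates 1 and 2, and in rimonabant replicate 1 rho was -0.697. Without TXX-1-10 replicate 3 the TXX-1-10 log2 fold changes were -0.87 for AKAP12, -0.62 for EPS8L2, -0.76 for RUNX2, -0.77 for AFAP1L1, -0.48 for NOTCH3, 0.93 for KCNK1 and 0.51 for PLCXD1, so each kept its direction and stayed under 2-fold. With a correction for gene length in each library, the corresponding range was -0.94 for AKAP12 to 0.99 for KCNK1.

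Of the 140 genes called with rimonabant, 14 had a TXX-1-10 change in that direction of less than 2-fold and 1, MT1E, had one in the opposite direction, together 0.160% of the genes fitted, and the 7 genes are among the 14. The median TXX-1-10 change of the 140 genes, taken in the direction of rimonabant, was 2.04 on the log2 scale against a median rimonabant change of 1.2. TXX-1-10 had the smaller change for 22 of the 140 genes and the larger change for 118. The rimonabant and TXX-1-10 comparisons share the vehicle libraries.

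The other 8 of these 15 genes were HIF1A, IDI1, IGFBP1, IL7R, ITGA10, MIR100HG, MT1E and SESN3. The 4 of them with the largest difference between the compounds were MT1E (1.97 on the log2 scale), IGFBP1 (1.72), MIR100HG (0.83) and IDI1 (-0.61). MT1E, a metallothionein, was at 534 FPKM in vehicle, 263 with rimonabant and 1027 with TXX-1-10, so it was the gene of the 140 that TXX-1-10 moved in the opposite direction. IGFBP1, a secreted IGF-binding protein, was at 19.0 FPKM in vehicle, 5.54 with rimonabant and 18.3 with TXX-1-10. The log2 fold changes of MIR100HG, a long noncoding host of miRNAs, were -1.04 and -0.21, and those of IDI1, an enzyme of isoprenoid and cholesterol synthesis, were 1.01 and 0.40. Among the 7 genes in the same fit, the difference of NOTCH3 (0.613) was about the size of that of IDI1 (-0.608), and PLCXD1 (-0.56) followed.

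The threshold of the selection cut through a continuous range. Just inside it with rimonabant were PTGS2, a prostaglandin synthase, at 1.001 and PLD5 at -1.002, and just outside it were ADGRF5 at -0.9982 and the mitotic cyclin CCNB1 at -0.9984. On the TXX-1-10 side, AKAP12 at -0.95 and KCNK1 at 0.93 were just under 2-fold, and SEMA3B at -1.06 and MSMO1 at 1.07 were just over it.

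The genes outside the set most like each of the 7 were found by Pearson's r of log2(FPKM + 1) over the 8 libraries, which share treatments, so r mainly follows the differences between treatments. ITGA10, an integrin alpha subunit, was the most similar gene to AKAP12 (r = 0.9942) and to RUNX2 (r = 0.9935), followed by CHD3 (0.9939) and FBXO41 (0.9927). EPS8L2 was most similar to CDC25B (0.992) and HIF1A (0.9894), and AFAP1L1 to SNHG16 (0.9883) and LTBP1 (0.9852). KCNK1 was most similar to GPR137 (0.9975) and DNAJB6 (0.9934), and PLCXD1 to MANBAL (0.9868) and ERG28 (0.9807). NOTCH3 had NRG1 (0.9639) and FLII (0.9634) as its most similar genes outside the set, both below EPS8L2 (0.969) within it, and 8 genes outside the set above an r of 0.95, against 31 to 102 for the other 6 genes.

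Genes related to the 7 by function, family or position were taken from 10 lists with 184 names, of which 103 could be fitted. Among the 103, 2 were called with rimonabant (1.94%), 12 with TXX-1-10 (11.7%) and 6 between the compounds (5.83%), close to the 1.49%, 12.7% and 6.41% of all genes. The median log2 fold change of the 103 genes was 0.01 with rimonabant and 0.05 with TXX-1-10, against 0.003 and -0.04 over all genes.

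Among 17 fitted partners of AKAP12, which comprise other anchoring proteins, protein kinase A subunits and its inhibitors, PKIA rose with both compounds and PRKAR2B fell with TXX-1-10. PKIA, a peptide inhibitor of the kinase, was at 2.76, 2.85 and 2.47 FPKM in vehicle, 5.96 and 6.09 with rimonabant, and 6.35, 6.37 and 5.86 with TXX-1-10. Its log2 fold change was 1.16 (SE 0.091, adjusted p = 2.39e-06) with rimonabant and 1.20 (SE 0.083, adjusted p = 5.62e-08) with TXX-1-10. PRKAR2B, a regulatory subunit, went from 3.97 FPKM in vehicle and 4.22 with rimonabant to 1.70 with TXX-1-10, a difference of -1.31 (SE 0.1, adjusted p = 3.91e-07) between the compounds. The median of the 17 genes was 0.01 with rimonabant and -0.06 with TXX-1-10. Vehicle replicate 2 does not list 6 further genes of this list, which were not fitted. Of these, PKIB was at 1.43 and 1.17 FPKM in vehicle, 3.48 and 3.02 with rimonabant and 4.93, 4.47 and 4.99 with TXX-1-10. AKAP5 was at 1.11 and 1.07, then 1.22 and 1.02, then 0.642, 0.586 and 0.492. Neither was tested.

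In the EPS8 list, with 15 genes fitted, ABI2 alone was called. ABI2 is an adaptor of the WAVE complex that drives actin branching, and its log2 fold change was -1.15 with TXX-1-10 (SE 0.054, adjusted p = 1.61e-09) and -0.37 with rimonabant. Of the paralogs of EPS8L2, EPS8 had -0.20 and -0.19 and EPS8L1 had 0.00 and 0.07 with rimonabant and TXX-1-10. In the AFAP list, with 11 genes fitted, PRKCA and SH3PXD2B were called with TXX-1-10. PRKCA, a protein kinase C that binds gravin as well as AFAP1, fell by 1.08 (SE 0.088, adjusted p = 2.57e-07) but by 0.97 without TXX-1-10 replicate 3, and SH3PXD2B, a scaffold of podosomes, rose by 1.26 (SE 0.086, adjusted p = 4.82e-08), with a difference of 1.21 from rimonabant. AFAP1 itself had -0.44 and -0.56, and AFAP1L2 had 0.52 and -0.09.

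Among 9 fitted RUNX partners and targets, VEGFA was the called gene. It encodes the angiogenic factor VEGF-A and went from 5.86, 5.73 and 5.77 FPKM in vehicle to 7.25 and 7.58 with rimonabant replicates 2 and 3, and to 16.1, 16.5 and 16.4 with TXX-1-10. The log2 fold change with TXX-1-10 was 1.496 (SE 0.046, adjusted p = 5.24e-11). RUNX1 had -0.16 and -0.55, CBFB 0.17 and -0.19, and 13 of the 22 listed genes, mostly bone genes, could not be fitted since they are missing from at least 1 of the 8 lists. SPP1, BGLAP and ALPL, markers of bone-forming cells, had at most 10 counts in any library that lists them.

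The Notch pathway was followed in 3 lists. Of its ligands and receptors, NOTCH1, NOTCH2 and JAG1 could be fitted. NOTCH2 was the most abundant receptor at 24.7 FPKM in vehicle, NOTCH1 was at 10.6 and NOTCH3 at 1.76. No gene of this list was called in any comparison by edgeR or DESeq2, and 1, 2 and 2 of the 3 had an unadjusted p under 0.05 with rimonabant, with TXX-1-10 and between the compounds, where 53.7%, 76.8% and 64.7% of all fitted genes did. The ligand JAG1 had log2 fold changes of -0.29 (adjusted p = 0.000868) and -0.80 (adjusted p = 1.4e-08).

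Of 21 fitted genes that process or regulate Notch, 3 were called with TXX-1-10 and none with rimonabant, where 13 had an unadjusted p under 0.05 and DESeq2 called 0. NEURL1B, a ubiquitin ligase of the Neuralized family that acts on Notch ligands, fell from 4.33, 4.08 and 4.19 FPKM in vehicle to 0.549, 0.533 and 0.431 with TXX-1-10, and was at 2.48 and 2.76 with rimonabant. Its log2 fold change was -3.05 (SE 0.11, adjusted p = 1.4e-10), and it differed between the compounds by -2.37 (SE 0.12, adjusted p = 1.01e-08). The gamma-secretase subunit PSEN2 and the protease ADAM17 rose with TXX-1-10 by 1.02 (adjusted p = 3.92e-08) and 1.04 (adjusted p = 1.37e-08) on the log2 scale, whereas ADAM10 had -0.95. PSEN2 was under 2-fold at 0.99 without vehicle replicate 2 and at 0.97 without TXX-1-10 replicate 2, and its difference from rimonabant of 1.01 became 0.97 without rimonabant replicate 3 and 0.96 without TXX-1-10 replicate 2. Among 8 fitted nuclear factors and targets, the coactivator MAML2 fell by 1.37 with TXX-1-10 (SE 0.11, adjusted p = 3.14e-07), RBPJ had 0.05 and -0.01, and the target HES1 had 0.73 and 0.24. Not fitted, as vehicle replicate 2 does not list them, were 5 of 26 processing or regulating genes and 6 of 14 nuclear factors and targets. The target HEY1 was at 0.544 and 0.287 FPKM in vehicle, 0.658 and 0.651 with rimonabant and 3.32, 3.08 and 3.35 with TXX-1-10. The regulator LFNG was at 3.51 and 2.72, then 1.20 and 1.41, then 0.759, 0.525 and 0.572. The target NRARP was at 1.39 and 2.17, then 1.32 and 1.40, then 1.35 and 1.63. The target HES4 was at 4.87 and 4.62, then 5.71 and 6.13, then 6.68, 6.61 and 8.75. None of these was tested.

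Of the 29 potassium channel subunits in the list, 5 could be fitted. Among these, KCNN4, a calcium-activated channel, fell with both compounds while KCNK1 was higher. KCNN4 was at 6.03, 6.82 and 6.90 FPKM in vehicle, 2.48 and 2.38 with rimonabant and 1.70, 2.03 and 2.65 with TXX-1-10. Its log2 fold change was -1.44 (SE 0.15, adjusted p = 1.6e-05) and -1.63 (SE 0.13, adjusted p = 2.22e-07), and the difference between the compounds of -0.19 had an adjusted p of 0.316. KCNK6, from the family of KCNK1, had 0.39 and 0.92. KCND1, a potassium channel gene left out of the list, was called with rimonabant at 1.499 and had 2.595 with TXX-1-10. It was thus higher with both compounds, like KCNK1.

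Of 6 fitted phospholipase C genes, PLCE1 had a log2 fold change of -1.06 with TXX-1-10 (SE 0.088, adjusted p = 2.92e-07) and 0.20 with rimonabant, a difference of -1.26 (SE 0.094, adjusted p = 3e-07) between the compounds. Without vehicle replicate 2 the TXX-1-10 value was -0.98. PLCXD2, a paralog of PLCXD1, had 0.79 and 0.82, and the paralog PLCXD3 was listed in no library. Of 9 other fitted genes of the first pseudoautosomal region, none was called in any comparison by edgeR or DESeq2, and 5, 7 and 5 had an unadjusted p under 0.05 with rimonabant, with TXX-1-10 and between the compounds. Vehicle replicate 2 does not list 3 further genes of the region, which were not fitted. IL3RA, 1 of them, was at 1.47 and 2.61 FPKM in vehicle, 5.10 and 6.25 with rimonabant and 11.9, 11.8 and 12.9 with TXX-1-10. This difference was not tested. The others, CRLF2 and P2RY8, had at most 9 counts in any library that lists them. The paralogs, JAG1, ADAM10, RBPJ, HES1, SPP1, BGLAP, ALPL and the first neighbours below were named for their relation to the 7 genes and not for passing the test. AKAP5, PKIB, HEY1, HES4, LFNG, NRARP, IL3RA, CRLF2 and P2RY8 were not fitted and were named as examples, not by a rule.

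Genes next to the 7 were also examined. Of the 13 nearest fitted protein-coding neighbours, 0 were called by edgeR or DESeq2 with either compound, and 6 had a p under 0.05 with rimonabant and 10 with TXX-1-10, both before and after adjustment over all genes. Among all fitted genes, 46.5% and 75.3% had an adjusted p under 0.05, so the neighbours' counts were close to the background. ZBTB2, whose nearest end lies 5.56 kb after AKAP12, had -0.94 (adjusted p = 7.74e-06) and -0.97 (adjusted p = 2.04e-07). ABLIM3, an actin-binding LIM protein gene that ends 11.3 kb before AFAP1L1, had -0.82 (adjusted p = 2.02e-06) and -0.22 (adjusted p = 0.00248). GTPBP6, 1.17 kb after PLCXD1, had -0.18 and 0.20, opposite in sign to PLCXD1 with rimonabant.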

How the data were processed

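RNA-seq libraries of 3 treatments, 3 libraries each, were analysed. The submitters' processing notes name HISAT2 2.0.5 and featureCounts 1.5.0-p3. The authors deposited, per library, a whole-number count per gene without normalization, and an FPKM value made from that count, the gene length and a library total. This total was recovered from these columns and used as the library size; in vehicle replicates 1 and 3 the listed counts exceed it, and which reads it holds is not given in the sources used here. The 9369 genes listed in the 8 libraries other than rimonabant replicate 1 and with FPKM averaging 1 or more were fitted with edgeR 4.0.16 (R 4.3.3; estimateDisp, glmQLFit, glmQLFTest; Benjamini-Hochberg over all genes; common biological coefficient of variation 0.0604). SE is the log2 fold change divided by the square root of F, and is approximate. On simulated counts for rimonabant against vehicle, 200 of 200 genes changed 3-fold were recovered with 0 false calls among 9369 genes. Every gene was simulated with a coefficient of 0.07 and without a length trend. A 3-fold change lies well past the 2-fold threshold, so this checks the code and not calls near 2-fold.

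The 7 genes, the 10 lists and the tests were chosen with earlier results of these data known. The genes named in the text are the 7, the 2 most similar genes to each, the called genes of each list (at most 4), the genes next to the 2-fold threshold, the 4 non-members with the largest difference between compounds, and the nearest fitted neighbours on each side; others are said to be so. Alternatives were TMM, DESeq2 1.42.0, limma 3.58.1 on log2(FPKM + 1) and log2(FPKM + 0.1), a replicate block, no filter, a mean FPKM of at least 5, 9 libraries, a length correction (with and without the block, the former added after the data were seen), fits of 2 groups, and each library left out. Python 3.11.15, numpy 2.4.6, pandas 2.3.3, scipy 1.17.1 and matplotlib 3.10.9 were used. Depth differed little between libraries, and the SE of a gene includes the spread between libraries as well as counting error.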

Additional observations from a re-analysis of the deposited data

How the results depend on the processing

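Every one of the 7 genes kept its direction against vehicle under all 19 alternatives that could fit it, and none reached 2-fold with TXX-1-10 in the direction of rimonabant. The number of them past 2-fold with rimonabant was 2 of 7 with limma on log2(FPKM + 1), which understates changes of low genes, 3 of 3 at a mean FPKM of at least 5, and 2 of 2 with 9 libraries, since fewer genes are then fitted; it was 6 to 7 when each library was left out. Genes called with rimonabant numbered 76 with limma on log2(FPKM + 1) and 48 with 9 libraries (4236 genes), where TXX-1-10 called 500 against vehicle and 251 against rimonabant; leaving out each library gave 134 to 157. At a mean FPKM of at least 5 the calls were 100, 900 and 458. Related genes called with rimonabant, with TXX-1-10 and between compounds numbered 0, 4 and 2 at a mean FPKM of at least 5, 1, 5 and 2 with limma on log2(FPKM + 1), and 0, 4 and 1 with 9 libraries. Of the 12 related genes named, PKIA (0.93 with rimonabant), ABI2, ADAM17, MAML2, PLCE1, PRKAR2B and PSEN2 were under 2-fold with limma on log2(FPKM + 1). The replicate numbers did not pair the libraries (correlations of deviations between same-numbered libraries 1 to 3 were -0.05, 0.04 and 0.04 for rimonabant with vehicle, -0.07, 0.01 and -0.08 for TXX-1-10 with vehicle, and -0.79, 0.83 and -0.61 for TXX-1-10 with rimonabant, large but of both signs), and the replicate block gave 138, 1189 and 606 calls, against 140, 1187 and 601. The block moved no gene of the 7 across 2-fold; RUNX2 was -1.003 with rimonabant under it. No sample group had 4 or more libraries, so single outlying libraries were not tested. Low-count genes are not covered, because a gene had to be listed in all 8 libraries, the shortest of which holds 9397 genes, and average at least 1 FPKM.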
